A study of Mus musculus with 22 samples.

Results

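Mural cells are the pericytes and vascular smooth muscle cells that wrap the endothelial tube of brain vessels. The 10 genes described here, Rgs5, Vtn, Pdgfrb, Acta2, Tagln, Myl9, Notch3, Higd1b, Cald1 and Ndufa4l2, are used as markers of these cells. They were chosen by name, with earlier results of these data known. Every feature of the count table that carries 1 of these symbols alone was summed per gene. This gave 52 features for the 10 genes out of 95410 features and 15297 genes in all. RNA 5' ends were counted by STRT sequencing, which tags the start of each transcript at reverse transcription, in biopsies of primary motor cortex (M1). All mice were C57BL/6 males between 16 and 20 weeks of age. The groups were 5 BERKO mice, which lack estrogen receptor beta (ERb-/-), and 6 wild-type (WT) mice. Each mouse gave a right and a left biopsy by needle puncture, so each library is of bulk tissue. The labels speak of 6 BERKO mice at the outset, with a sample removed by the submitters as an outlier, and replicate 1 of BERKO is not analysed here.

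Pericytes sit on capillaries, depend on platelet-derived growth factor B released by endothelial cells and sensed through the receptor Pdgfrb, and help maintain the blood-brain barrier. Smooth muscle cells surround arterioles and set vessel diameter through an actin and myosin apparatus whose genes are commonly driven by serum response factor bound to CArG boxes. Notch3 is a receptor through which mural cells, those of arteries above all, are kept in their differentiated state.

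No library was set aside. The left biopsy of BERKO replicate 5 was the shallowest, with 239058 gene reads from 1 of the 3 lanes, against 467201 or more in the other biopsies. Gene reads per mouse ranged from 968219 to 1626675 in BERKO mice and from 1353208 to 2722667 in WT mice. Esr2, the gene BERKO mice lack, had 10 reads in 2 of 10 BERKO biopsies and 3 reads in 1 of 12 WT biopsies, so it could not check the genotype labels at this depth, and where the deletion lies in the gene is not known from the labels. A principal component analysis of 5419 genes set 3 WT biopsies apart. On its first component (15.1% of variance) they scored 41.7 and 49.9 (WT replicate 1, right and left) and 43.9 (WT replicate 2, left), where the other 19 biopsies scored between -19.4 and 9.40. If the code in the column names is the well, BERKO biopsies filled plate rows D to F and WT biopsies rows A to C, with right biopsies in rows A and D, so plate row cannot be told apart from genotype or side.

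Myl9 and Acta2 encode parts of the contractile apparatus, and Rgs5 is the pericyte gene with the smallest p for genotype below, so their promoters are shown. The sequences are those of RefSeq (GRCm38.p6), 300 bases long, from 250 bases before to 50 bases after the annotated start. Capitals mark CArG boxes, including those with at most 1 G or C among the middle bases.
Rgs5: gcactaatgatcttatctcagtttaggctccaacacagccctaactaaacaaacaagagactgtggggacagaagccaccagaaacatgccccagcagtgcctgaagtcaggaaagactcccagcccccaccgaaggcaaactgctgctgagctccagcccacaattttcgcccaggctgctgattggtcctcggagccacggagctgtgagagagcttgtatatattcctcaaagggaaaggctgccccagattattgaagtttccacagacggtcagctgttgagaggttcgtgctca
Myl9: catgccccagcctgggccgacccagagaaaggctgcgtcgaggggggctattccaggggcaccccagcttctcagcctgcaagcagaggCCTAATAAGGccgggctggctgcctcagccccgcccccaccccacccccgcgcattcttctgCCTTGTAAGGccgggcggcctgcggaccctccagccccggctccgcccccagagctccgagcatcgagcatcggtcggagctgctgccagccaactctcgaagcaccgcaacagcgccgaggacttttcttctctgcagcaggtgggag
Acta2: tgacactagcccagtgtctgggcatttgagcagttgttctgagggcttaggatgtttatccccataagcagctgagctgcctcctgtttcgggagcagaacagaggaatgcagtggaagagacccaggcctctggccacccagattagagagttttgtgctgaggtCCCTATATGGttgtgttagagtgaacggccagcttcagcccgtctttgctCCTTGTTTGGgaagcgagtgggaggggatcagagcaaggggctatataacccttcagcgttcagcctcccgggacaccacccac

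These promoters lie at chr1:169655251-169655550 on the plus strand for Rgs5, chr2:156775214-156775513 on the plus strand for Myl9 and chr19:34255324-34255623 on the minus strand for Acta2. RefSeq promoters matched 6 of the 10 genes, with 7 promoters because Cald1 has 2. No promoter was available for Tagln, Pdgfrb, Higd1b and Ndufa4l2, so these genes were not searched for any motif. Among the 7 promoters, a strict CArG box, searched on both strands, was found in that of Myl9 alone, at offset -161 from the start. Of 32851 promoters of the same length, 1.63% hold it. The looser form, added after the promoters had been seen, was found at offsets -161 and -99 in Myl9 and at offsets -84 and -34 in Acta2, and 9.98% of promoters hold it. The full palindromic consensus of the estrogen response element was in none of the 7 promoters and in 0.07% of all. TGGGAA, the core recognised by the Notch pathway factor Rbpj, was found at 3 places in the Vtn promoter and 1 in the Acta2 promoter, where it overlaps the looser CArG box at offset -34, against 25.6% of all promoters. TATAAA was found in the Vtn promoter, as a pair of overlapping matches on opposite strands, and in 1 of the Cald1 promoters, against 13.6% of all. A letter match is not a binding site, and the absence of a match says only that these letters are not in this window. The counted positions below are in mm9 and were not placed on these GRCm38.p6 sequences.

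The comparison of BERKO with WT mice asked whether mural cell transcripts differ in level when estrogen receptor beta is missing. None of the 9 genes that could be tested passed the threshold of adjusted p under 0.05, while 7 of 9025 genes (0.0776%) did, in edgeR's quasi-likelihood test with Benjamini-Hochberg adjustment. At an unadjusted p under 0.05, 3 of the 9 genes, Rgs5, Myl9 and Ndufa4l2, were higher in BERKO mice, against 5.27% of all genes that were higher at this p and 9.92% in either direction. limma-voom also called none of the 9. DESeq2 gave an adjusted p to only 3 of the 9, Rgs5, Vtn and Cald1, and called none of these. The log2 change, BERKO over WT, was above 0 in 8 of 9 genes with a median of 0.32, while all tested genes had a median of -0.01 and 49.2% of them lay above 0. The genes were chosen with earlier results of these data known, so these counts are not an independent test. In bulk tissue, fewer cells of a type and less RNA per cell cannot be told apart.

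Among the pericyte genes, Rgs5 encodes a regulator of G protein signalling and had the most reads of the 10, with 2960 in all. Rgs5 stood at 171.3, 175.4, 251.9, 175.4 and 219.9 CPM, the gene reads scaled to a common library size, in BERKO replicates 2 to 6, against 91.1 CPM at the lowest, 130.5 at the median and 190.9 at the highest in WT mice. All 5 BERKO mice lay above the WT median and 2 above every WT mouse, so the groups overlapped through WT replicate 5. The means were 198.8 ± 35.7 CPM in BERKO mice and 131.5 ± 37.1 CPM in WT mice (SD, n = 5 and 6). The log2 change was 0.60 ± 0.18 (SE; adjusted p = 0.263), which placed Rgs5 at rank 105 of 9025 genes by p. The change stayed between 0.50 and 0.80 under every alternative run on this comparison, with a lowest adjusted p of 0.0978.

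Vtn encodes vitronectin, an adhesive matrix protein that pericytes make in the brain. Vtn stood at 178.9, 132.7, 276.3, 150.2 and 129.7 CPM in BERKO replicates 2 to 6, against 85.5 CPM at the lowest, 142.6 at the median and 187.4 at the highest in WT mice. Only BERKO replicate 4 lay above every WT mouse, and 2 BERKO mice lay below the WT median. The log2 change of 0.32 ± 0.21 (SE; adjusted p = 0.630) was 0.09 without BERKO replicate 4.

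Pdgfrb encodes the receptor that pericytes need to be recruited to vessels. Pdgfrb stood at 9.14, 7.13, 28.3, 11.6 and 8.14 CPM in BERKO replicates 2 to 6, against 4.48 CPM at the lowest, 8.76 at the median and 21.8 at the highest in WT mice. BERKO replicate 4 alone lay above the WT range. The log2 change of 0.18 ± 0.52 (SE; adjusted p = 0.937) turned to -0.34 without BERKO replicate 4. It also turned negative, at -0.21, when the reads of upstream and 5' UTR features alone were counted. Pdgfrb had 216 reads over all libraries.

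Ndufa4l2 and Higd1b encode small mitochondrial proteins related to hypoxia-responsive ones and are enriched in brain pericytes. Ndufa4l2 stood at 25.1, 32.8, 20.7, 15.8 and 27.6 CPM in BERKO replicates 2 to 6, against 8.56 CPM at the lowest, 13.1 at the median and 22.8 at the highest in WT mice. All 5 BERKO mice lay above the WT median, 3 lay above every WT mouse, and WT replicate 4 was the only WT mouse within the BERKO range. The means were 24.4 ± 6.52 CPM in BERKO mice and 13.4 ± 5.09 CPM in WT mice (SD, n = 5 and 6). The log2 change was 0.87 ± 0.37 (SE; adjusted p = 0.429), the largest of the 9 genes. Higd1b stood at 11.4, 23.5, 12.2, 7.35 and 12.5 CPM in BERKO replicates 2 to 6, against 5.65 CPM at the lowest, 14.8 at the median and 26.1 at the highest in WT mice. No BERKO mouse lay outside the WT range, and the log2 change of -0.11 ± 0.46 (SE; adjusted p = 0.956) was above 0 with spike-in scaling, at 0.15, and with limma-voom, at 0.12.

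Among the contractile genes, Myl9 encodes a regulatory light chain of myosin. Myl9 stood at 56.3, 56.3, 68.1, 52.5 and 45.7 CPM in BERKO replicates 2 to 6, against 21.2 CPM at the lowest, 30.5 at the median and 60.3 at the highest in WT mice. All 5 BERKO mice lay above 5 of the 6 WT mice, and WT replicate 4 lay inside the BERKO range. The means were 55.8 ± 8.14 CPM in BERKO mice and 34.0 ± 15.1 CPM in WT mice (SD, n = 5 and 6). The coefficient of variation was 14.6% among BERKO mice and 44.5% among WT mice. The log2 change was 0.71 ± 0.28 (SE; adjusted p = 0.388).

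Acta2, which encodes smooth muscle alpha-actin, stood at 60.1, 15.7, 88.0, 37.8 and 22.6 CPM in BERKO replicates 2 to 6, against 13.1 CPM at the lowest, 24.9 at the median and 53.8 at the highest in WT mice. BERKO replicates 2 and 4 lay above every WT mouse and replicates 3 and 6 below the WT median. The log2 change of 0.65 ± 0.39 (SE; adjusted p = 0.585) was 0.25 without BERKO replicate 4 and 0.93 without WT replicate 4. Tagln, which encodes the actin-binding protein transgelin, stood at 12.9, 6.42, 25.3, 9.45 and 13.8 CPM in BERKO replicates 2 to 6, against 1.41 CPM at the lowest, 9.76 at the median and 24.1 at the highest in WT mice. The groups overlapped over nearly their whole range, and the log2 change of 0.23 ± 0.55 (SE; adjusted p = 0.920) turned to -0.04 without the 3 WT biopsies that stood apart and to -0.12 without BERKO replicate 4.

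Cald1 encodes caldesmon, an actin-binding protein that restrains contraction and is also made outside muscle. Cald1 stood at 89.8, 54.2, 88.0, 73.5 and 65.8 CPM in BERKO replicates 2 to 6, against 51.3 CPM at the lowest, 74.5 at the median and 82.7 at the highest in WT mice. The log2 change was 0.07 ± 0.21 (SE; adjusted p = 0.929), with coefficients of variation of 20.3% in BERKO mice and 18.2% in WT mice. Notch3 had 1 feature in the count table, in its 3' UTR at position 32258111 on the minus strand of chromosome 17 (mm9), and this feature had 0 reads in all 22 biopsies. A count of 0 allows up to 3.10 CPM in BERKO replicate 5 and 1.10 CPM in WT replicate 3, the shallowest and the deepest mouse, before scaling. A further annotated Notch3 feature, in an intron, was not analysed here, so the level of Notch3 is not known from these values.

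**Figure D1:**
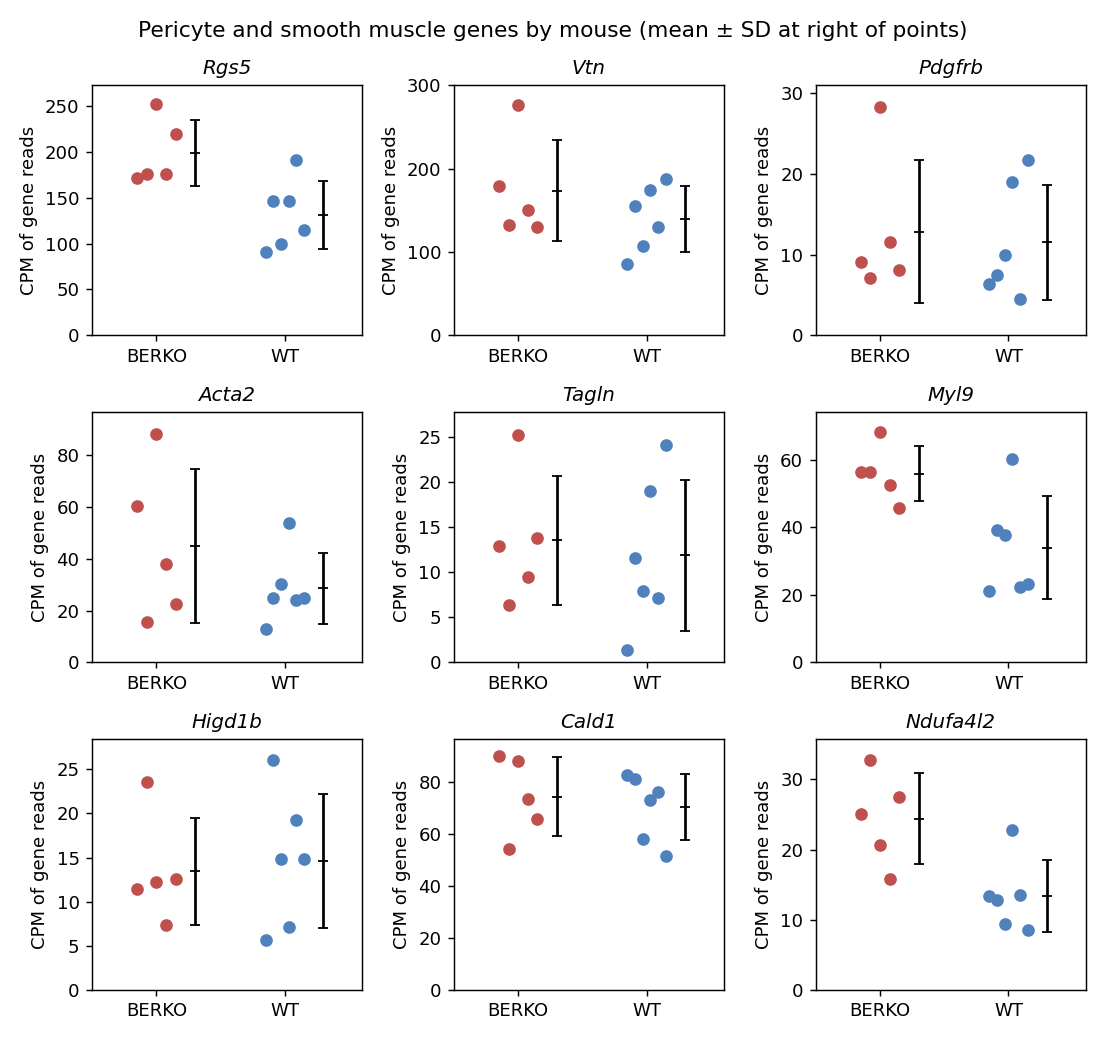
Levels of 9 genes in CPM of gene reads (y axis, from 0) in BERKO mice (red, n = 5) and WT mice (blue, n = 6); each point is a mouse, and the bar beside the points gives the mean and SD. No gene separates the genotypes, and in the Rgs5, Myl9 and Ndufa4l2 panels all 5 BERKO mice lie above the WT median.

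None of the 9 genes had mice of the genotypes that did not overlap, against 1.33% of all tested genes, or 0.731% with every BERKO mouse higher. The same mice recurred at the extremes. BERKO replicate 4 was the highest of the 11 mice for 6 of the 9 genes, and WT replicate 1, whose biopsies stood apart on the first principal component, was the lowest for 6 of 9. WT replicate 6 was the lowest for 2 more. With BERKO replicate 4 and WT replicate 4 both left out, an alternative chosen after the values were seen, the log2 change was 0.53 ± 0.21 for Rgs5, 0.87 ± 0.29 for Myl9 and 1.14 ± 0.41 for Ndufa4l2 (SE), and the adjusted p was 0.385, 0.332 and 0.376. Without the 3 WT biopsies that stood apart, the log2 change was 0.54 for Rgs5, 0.59 for Myl9 and 0.87 for Ndufa4l2. With all biopsies these changes were 0.60, 0.71 and 0.87. Without those biopsies the adjusted p was 0.362, 0.606 and 0.605 in edgeR's quasi-likelihood test.

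The reads of each gene came mainly from a single start region. The leading feature held 91.8% of Rgs5 reads (upstream, position 171585631 on the plus strand of chromosome 1, mm9), 88.9% of Vtn reads (5' UTR, 78312757, plus strand of chromosome 11) and 86.9% of Myl9 reads (upstream, 156601188, plus strand of chromosome 2). It held 94.9% of Acta2 reads (5' UTR, 34329825, minus strand of chromosome 19), 96.8% of Tagln reads (5' UTR, 45743979, minus strand of chromosome 9) and 96.9% of Cald1 reads (5' UTR, 34659489, plus strand of chromosome 6). All Ndufa4l2 reads came from a 5' UTR feature at 126952023 on the plus strand of chromosome 10. Higd1b was the exception with a large share at a second start, 73.0% in a 5' UTR feature at 102697742 and 27.0% in an upstream feature at 102697134, both on the plus strand of chromosome 11. A second upstream feature of Myl9 held 1.89% of its reads, and an upstream feature of Acta2 held 0.16%.

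For Pdgfrb, the share of reads outside the start region was larger in BERKO mice, a difference that was not tested. Its 5' UTR feature at 61204808 on the plus strand of chromosome 18 held 69.9% of the reads in BERKO mice and 98.5% in WT mice. The 3' UTR feature had 15 reads in BERKO mice and 0 in WT mice, and the CDS feature had 10 reads in BERKO mice and 2 in WT mice. Of the 25 BERKO reads outside the start region, 20 came from BERKO replicate 4 and 5 from replicate 6, so 3 of 5 BERKO mice had none. Without them BERKO replicate 4 had 17 Pdgfrb reads, against 10 to 35 in WT mice. The pooled share of CDS, 3' UTR and intron reads was lower in BERKO than in WT mice for Cald1 (0.62% against 4.39%), Tagln (2.22% against 3.88%) and Rgs5 (7.74% against 8.53%). It was higher for Vtn (12.9% against 9.80%), Myl9 (12.3% against 10.3%) and Acta2 (5.21% against 4.82%). Over all features, CDS, 3' UTR and intron features held 18.0% to 21.1% of reads in BERKO mice and 13.2% to 18.6% in WT mice, and the part of this shift in the Pdgfrb values was not tested.

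Of the 52 features, 42 had reads and 10 could be tested, and 0 of these passed the threshold in edgeR's quasi-likelihood test, against 0.107% of 13128 features. At an unadjusted p under 0.05, 3 of the 10 passed, the leading features of Rgs5, Myl9 and Ndufa4l2, against 11.6% of all features. The log2 change was 0.57 ± 0.19 for the Rgs5 feature (SE; adjusted p = 0.262), 0.67 ± 0.31 for the Myl9 feature (adjusted p = 0.404) and 0.83 ± 0.36 for the Ndufa4l2 feature (adjusted p = 0.389). The Pdgfrb 5' UTR feature had a log2 change of -0.34 ± 0.52 (adjusted p = 0.845).

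**Figure D2:**
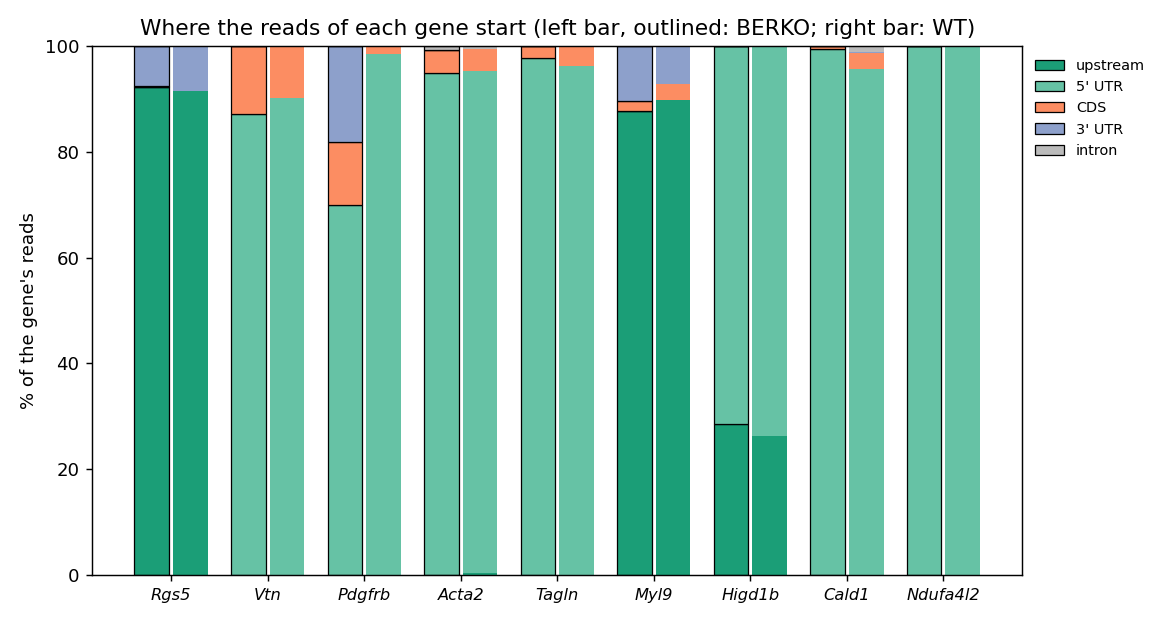
Share of each gene's reads (y axis, %) by class of feature, pooled over the mice of a genotype, with the outlined left bar for BERKO and the right bar for WT. Upstream and 5' UTR features hold most reads of all 9 genes, and Pdgfrb has 30.1% elsewhere in BERKO mice, the largest share of the 9 genes in that genotype, and 1.5% in WT mice.

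Each side was then tested alone. On the right side, 0 of 9 genes passed the threshold (0.065% of 7696 genes did), and 3, Rgs5, Acta2 and Myl9, had an unadjusted p under 0.05 and were higher in BERKO biopsies, against 4.43% of all genes that were higher and 8.25% in either direction. All 9 log2 changes were above 0 with a median of 0.70, but those of Cald1, Ndufa4l2 and Pdgfrb turned negative when some single mouse was left out. Rgs5 had a log2 change of 0.70 ± 0.22 (SE; adjusted p = 0.424), and its right biopsies held 164.8 to 222.7 CPM in BERKO mice and 73.2 to 177.1 CPM in WT mice. Acta2 had a log2 change of 1.20 ± 0.49 (SE; adjusted p = 0.514) on the right, where BERKO replicates 2 and 4 stood at 108.3 and 77.7 CPM, the other BERKO biopsies at 12.3 to 26.0 CPM and WT biopsies at 13.2 to 39.7 CPM. So 2 of 5 right BERKO biopsies lay above the WT range for Acta2.

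On the left side, 7 genes could be tested and 0 passed the threshold (0.0% of 6616 genes did). At an unadjusted p under 0.05, 1 of 7 passed, Ndufa4l2, against 3.2% of all genes that were higher and 6.79% in either direction. Ndufa4l2 stood at 29.9, 48.8, 35.4, 16.4 and 41.0 CPM in the left biopsies of BERKO replicates 2 to 6, against 2.83 CPM at the lowest, 11.3 at the median and 21.9 at the highest in left WT biopsies. In 4 of 5 BERKO mice it lay above every left WT biopsy. The value of 16.4 CPM in BERKO replicate 5, the shallow library, is 4 reads, and the log2 change of Ndufa4l2 on the left without this mouse was 1.74 (adjusted p = 0.767 in edgeR's quasi-likelihood test). The log2 change was 1.58 ± 0.55 (SE; adjusted p = 0.614) on the left and 0.25 ± 0.61 (SE; adjusted p = 0.950) on the right. Higd1b showed a log2 change of -1.25 ± 0.77 (SE; adjusted p = 0.816) on the left and 0.77 ± 0.64 (SE; adjusted p = 0.778) on the right.

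**Figure D3:**
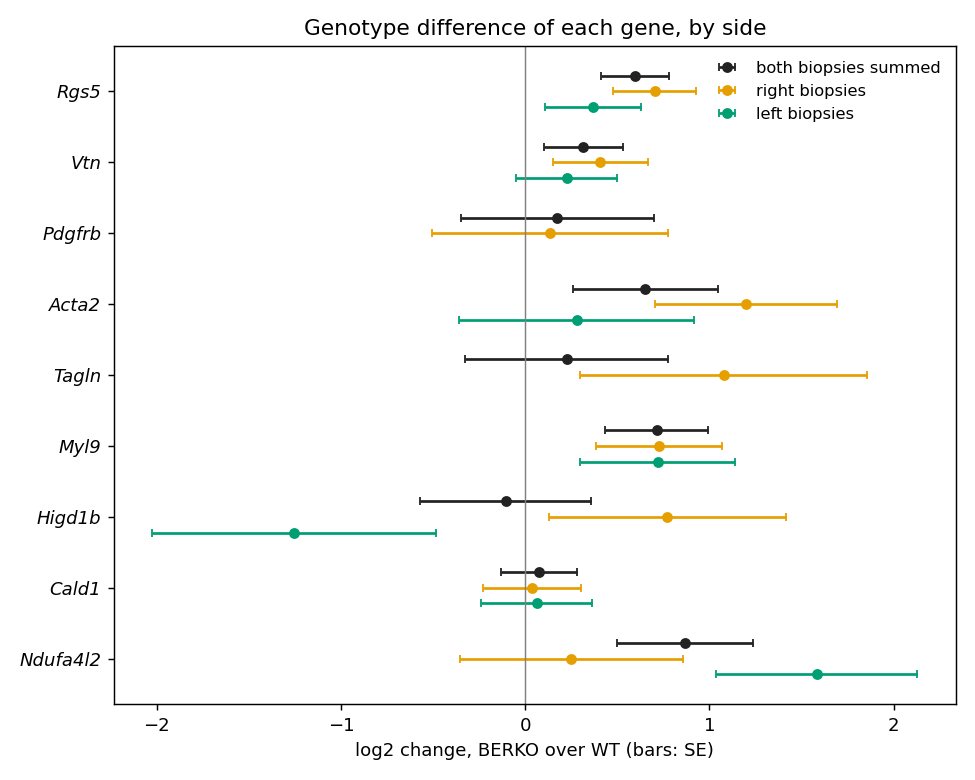
Log2 change, BERKO over WT (x axis), of 9 genes in both biopsies summed, right biopsies and left biopsies, with bars for the SE; Pdgfrb and Tagln were not tested on the left. Rgs5, Vtn, Acta2, Myl9, Cald1 and Ndufa4l2 lie right of 0 in all 3 fits, and Ndufa4l2 and Higd1b show the widest gaps between the sides.

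The difference between the sides was tested in a model with the mouse as a block. For genotype by side, 0 of 9 genes were past the threshold and 0 reached an unadjusted p under 0.05, against 0.0% and 3.15% of 10016 genes. The estimates ran from a log2 value of -1.27 ± 0.97 for Ndufa4l2 (SE) to 1.85 ± 1.16 for Higd1b (SE), and the adjusted p was 1.00 for each. Ndufa4l2 was higher on the right in 0 of 5 BERKO mice and 4 of 6 WT mice, and Higd1b was higher on the right in 4 of 5 BERKO mice and 1 of 6 WT mice. By count of mice, the side difference of both genes ran in opposite directions in the genotypes, but the test of that difference passed for neither.

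Right against left, over all mice, 0 of 9 genes passed the threshold (0.0% of 10016 did) and 0 had an unadjusted p under 0.05, against 5.46% of all genes. The log2 change, right over left, was below 0 in 8 of 9 genes, with a median of -0.22 where all genes had 0.06, and Pdgfrb at 0.44 ± 0.57 (SE) was the exception; Rgs5 and Higd1b turned positive with spike-in scaling, at 0.02 and 0.05. Pdgfrb was higher on the right in 4 of 5 BERKO mice and 5 of 6 WT mice. Within BERKO mice, 0 of 9 genes passed the threshold or had an unadjusted p under 0.05, against 0.0% and 4.49% of genes. Within WT mice 0 did either, against 0.0% and 4.18%.

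The levels also differed between biopsies of the same mouse. The summed level of the contractile genes Acta2, Tagln and Myl9 was 238.9 CPM in the left biopsy of BERKO replicate 4 and 206.8 CPM in the right biopsy of BERKO replicate 2, and 239.1 CPM in the left biopsy of WT replicate 4. The medians were 90.4 CPM in right and 113.9 CPM in left BERKO biopsies, and 63.6 CPM in right and 75.4 CPM in left WT biopsies. The highest biopsies thus came from both genotypes. In WT replicate 4 the left biopsy held 103.6 CPM of Acta2 and the right biopsy 19.1 CPM, while in BERKO replicate 2 the right biopsy held 108.3 CPM and the left biopsy 17.1 CPM. In these 2 mice, Acta2 was high in a single biopsy.

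The summed level of the pericyte genes Rgs5, Vtn, Pdgfrb, Higd1b and Ndufa4l2 was highest in BERKO replicate 4, with 535.8 CPM in the right biopsy and 681.4 CPM in the left. It ranged from 323.4 to 402.3 CPM in the other BERKO biopsies and from 166.9 to 378.5 CPM in WT biopsies. Both biopsies of BERKO replicate 4 stood above all others in this sum. The left was among the 3 highest of 22 biopsies for 7 of the 9 genes, and the right for 3. Most of the sum was Rgs5 and Vtn, at 303.1 and 312.0 CPM in the left biopsy, where Higd1b stood at 6.64 CPM, from 3 reads.

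**Figure D4:**
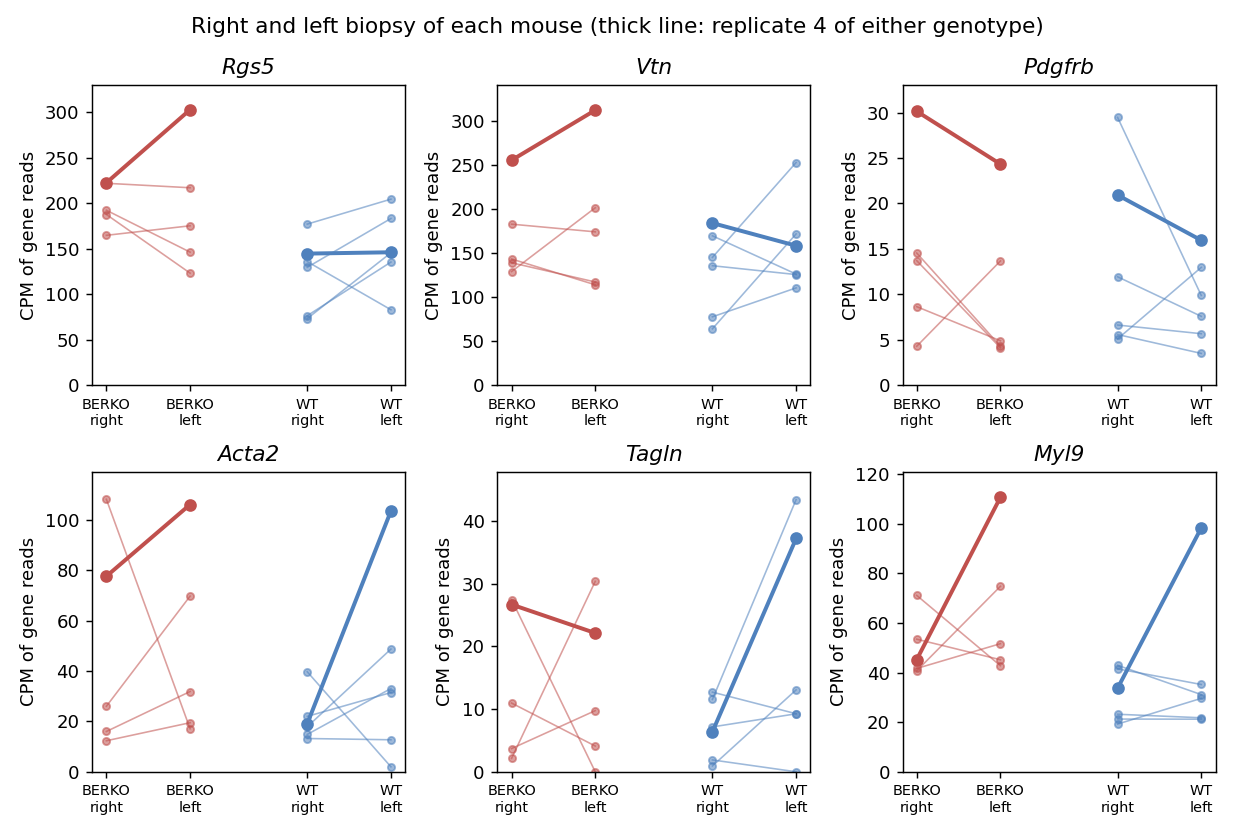
Levels in CPM of gene reads (y axis, from 0) of 6 genes in the right and left biopsy of each mouse, joined by a line, for BERKO (red) and WT (blue); the thick line is replicate 4 of either genotype. Acta2 reaches 106.2 CPM in the left biopsy of BERKO replicate 4 and 103.6 CPM in that of WT replicate 4, while Rgs5 and Vtn are high in both biopsies of BERKO replicate 4.

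The genes moved together only in part across the 22 biopsies, which share mice and differ in depth. Of the 36 pairs of genes, 30 had a Pearson r above 0 on the log2(CPM + 1) scale, with a median of 0.30 and a range of -0.12 to 0.57. The share over pairs of other genes is not given here, so this count does not show a pattern particular to mural genes. Acta2 and Myl9 had r = 0.53, Rgs5 and Ndufa4l2 0.52, Pdgfrb and Tagln 0.57 and Rgs5 and Vtn 0.42. Against the mean of the other genes, Acta2 had the highest r at 0.62 and Higd1b the lowest at 0.13. The genes outside the 10 most like their standardised mean, among 5414 candidates, were Cxxc5 (r = 0.88), Pi4k2a (0.78), H2-D1 (0.77), Clstn1 (0.75) and Stk11 (0.74). These were picked as the highest of all candidates and set against the mean of all 9 genes. Their r therefore cannot be compared with the r of each gene above, and the range expected by chance was not computed.

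Further genes of the same cells were taken from lists chosen by name, also with earlier results of these data known. Of 28 other pericyte genes, 26 had a row and 12 could be tested; 0 passed the threshold, 2 were higher at an unadjusted p under 0.05 (5.27% of all genes were), 9 log2 changes were above 0 and their median was 0.42. Mcam, an adhesion molecule of mural and endothelial cells, averaged 14.4 ± 8.67 CPM in BERKO mice and 3.96 ± 2.78 CPM in WT mice (SD), a log2 change of 1.87 ± 0.69 (SE; adjusted p = 0.366). Atp13a5, a P-type ATPase used as a pericyte marker, had a log2 change of 1.48 ± 0.68 (SE; adjusted p = 0.468), and Slc6a20a, an amino acid transporter, 0.69 ± 0.37 (adjusted p = 0.535). Abcc9, a subunit of a potassium channel of pericytes, Anpep, an aminopeptidase of the same cells, and Slc38a11 were at 0 reads. The floor given for Notch3 holds for them too. Which of their features were counted is not given here, so their level is not known from these values.

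Of 27 other smooth muscle genes, 24 had a row and 13 could be tested; 0 passed the threshold, 2 were higher at an unadjusted p under 0.05 (against the same 5.27%), 9 log2 changes were above 0 and their median was 0.22. Tpm1, a tropomyosin that many cell types also make, averaged 288.7 ± 42.2 CPM in BERKO mice and 194.2 ± 40.2 CPM in WT mice (SD), a log2 change of 0.57 ± 0.15 (SE; adjusted p = 0.179). Tpm2, the tropomyosin more typical of muscle, averaged 46.8 ± 10.3 CPM in BERKO mice and 28.0 ± 14.4 CPM in WT mice (SD), a log2 change of 0.75 ± 0.31 (SE; adjusted p = 0.429). Pcp4l1 had a log2 change of 0.40 ± 0.23 (SE; adjusted p = 0.568). Myocd, the coactivator of serum response factor in smooth muscle, and Wtip were at 0 reads, with the limit given for Abcc9.

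Of 34 genes of PDGF, Notch, TGF-beta, angiopoietin and endothelin signalling, 32 had a row and 15 could be tested; 0 passed the threshold, 0 had an unadjusted p under 0.05 (9.92% of all genes did), 12 log2 changes were above 0 and their median was 0.22. The smallest p values belonged to Edn3, an endothelin, at 0.83 ± 0.51, Eng, a TGF-beta coreceptor of endothelium, at 0.74 ± 0.48, and Rbpj, the transcription factor of the Notch pathway, at 0.69 ± 0.49 (log2 change ± SE). Of 13 genes of the vessel basement membrane, 4 could be tested and 0 passed the threshold. At an unadjusted p under 0.05, 1 of the 4 passed and was lower in BERKO mice, against 9.92% of all genes in either direction. The log2 change was above 0 in 3 of the 4, with a median of 0.41. Agrn, the proteoglycan agrin, averaged 7.07 ± 4.23 CPM in BERKO mice and 21.4 ± 14.3 CPM in WT mice (SD), a log2 change of -1.60 ± 0.51 (SE; adjusted p = 0.292). Fn1, which encodes fibronectin, was at 0.58 ± 0.40 and Lamb2, a laminin chain, at 0.53 ± 0.33 (log2 change ± SE). Lama5 and Hspg2 were at 0 reads, with the limit given for Abcc9.

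For markers of other cell types, the log2 changes were mostly above 0 as well. The median log2 change was 0.24 for 15 endothelial genes tested, 0.43 for 17 meningeal fibroblast genes, 0.32 for 15 astrocyte genes, 0.29 for 14 microglial genes, 0.31 for 12 oligodendrocyte genes and 0.23 for 12 neuronal genes, with 0 past the threshold in each. At an unadjusted p under 0.05, 3 endothelial, 3 meningeal, 7 astrocyte, 4 microglial, 6 neuronal and 0 oligodendrocyte genes passed, and 1 of the neuronal genes was lower, against 9.92% of all genes in either direction. The count lay above that share of the genes tested in each list but the oligodendrocyte list, from 3 of 17 meningeal to 6 of 12 neuronal genes, and these shares were not tested. The median of the 9 mural genes, 0.32, lies among these medians.

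The summed level of the 10 genes was 504.2 to 858.9 CPM in BERKO mice and 320.4 to 575.4 CPM in WT mice. Endothelial genes summed to 1174 to 1511 CPM in BERKO mice and 674.0 to 1220 CPM in WT mice, and astrocyte genes to 8983 to 11297 CPM in BERKO mice and 6432 to 10166 CPM in WT mice. Meningeal fibroblast genes summed to 7002 to 12364 CPM in BERKO mice and 2153 to 9952 CPM in WT mice, and microglial genes to 1361 to 1698 CPM in BERKO mice and 808 to 1347 CPM in WT mice. Oligodendrocyte genes summed to 5853 to 15126 CPM in BERKO mice and 2224 to 12719 CPM in WT mice, and neuronal genes to 10997 to 13164 CPM in BERKO mice and 8222 to 11717 CPM in WT mice. No gene with a row in these 6 lists was at 0. Of 6 haemoglobin and red cell genes, 2 had a row, and their sum was 10.7 to 54.8 CPM in BERKO mice and 6.95 to 54.8 CPM in WT mice. The 6 choroid plexus genes summed to 51.3 to 272.5 CPM in BERKO mice and 23.8 to 463.8 CPM in WT mice. The part of tissue composition in the values of the mural genes was not tested.

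**Figure D5:**
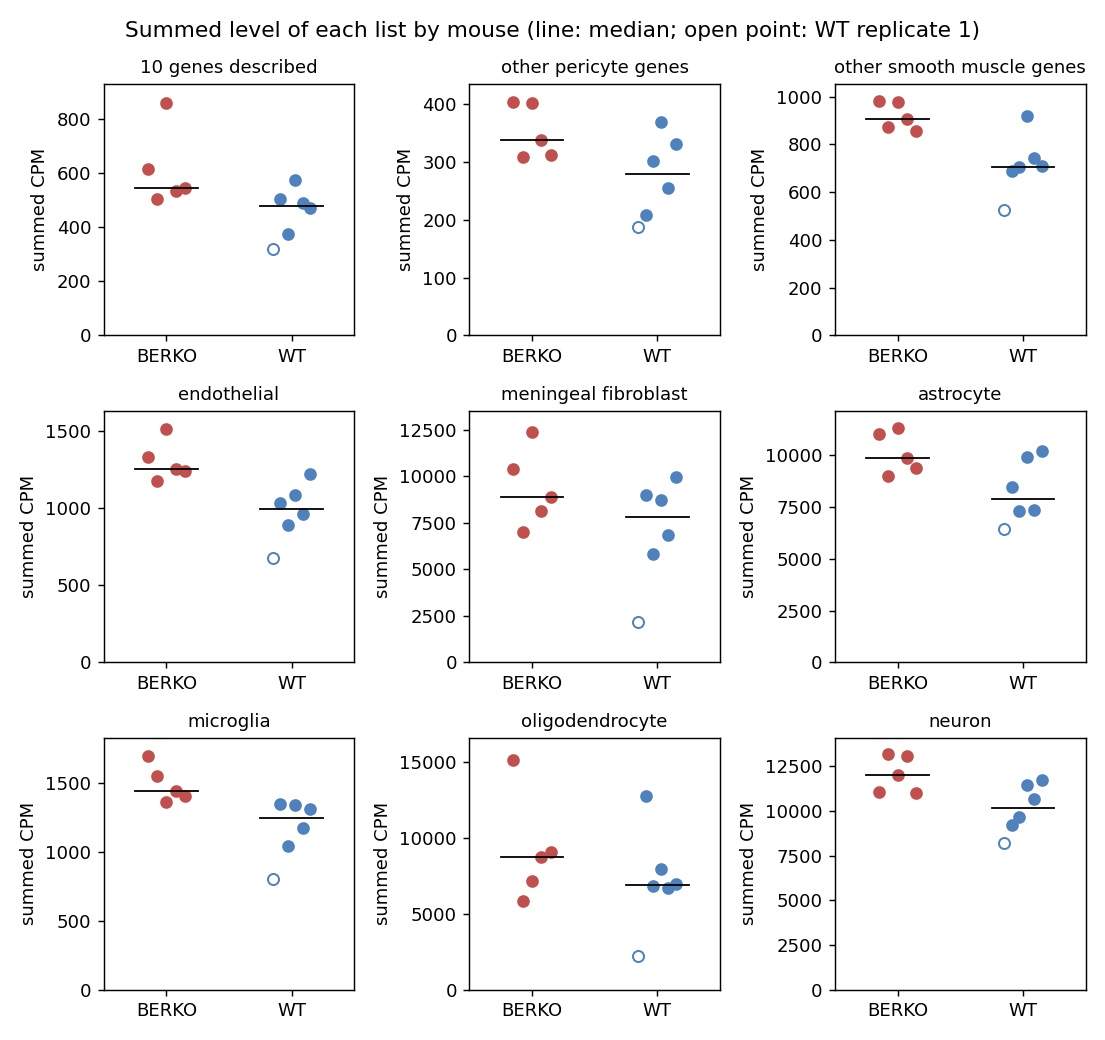
Summed CPM (y axis, from 0) of the 10 genes and of 8 marker lists in BERKO mice (red, n = 5) and WT mice (blue, n = 6), with a line at each median; the open point is WT replicate 1. The BERKO median lies above the WT median in every panel, and WT replicate 1 is the lowest mouse in all of them.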

How the data were processed

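Read counts, whole numbers, were deposited by the authors for each biopsy and lane, over features that each cover a cluster of 5' ends and carry a strand and a class; a deposited table of ratios was not used. The submitters' processing notes name mm9, Bowtie and TopHat2 2.0.12; filters and feature drawing are not given in the sources used here. Counts are reads after PCR, so floors cover counting error only. All 64 columns were matched by side, genotype and mouse number, taking the name's last digit for the mouse, a reading that no label states. Lanes were summed. Lane 1 against lane 3, in 21 biopsies, differed by a chi-square of 0.690 to 0.849 per gene, and biopsies of a group by 4.34 to 21.99. The remaining lane was not compared.

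Features with 1 symbol were summed per gene, and spike-in and ribosomal features were left out. Ribosomal features and those without a single symbol together took 5.22% of the reads outside spike-in sequences. The 9 genes tested had no stretch of 50 bases at 95% identity in another gene's transcripts; Notch3 shares 81 bases with Gm30232.

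Tests used edgeR 4.0.16 in R 4.3.3 (quasi-likelihood with robust dispersion, TMM, default expression filter, two-sided, Benjamini-Hochberg over all genes tested, threshold 0.05), with reads summed per mouse for genotype and the mouse as a block for side. After subtraction of group means, biopsies of the same mouse correlated by -0.15 to 0.17, and by 0.46 in WT replicate 1, whose biopsies stood apart; 4 of 11 right biopsies correlated best with their own left biopsy. Every value per mouse, and the block, depends on that reading of the digit. SE was obtained as log2 change over root F, and CPM are after TMM. The tests were first tested on simulated data. Alternatives included DESeq2 1.42.0 and limma 3.58.1. The common biological coefficient of variation was 36.7% over mice, for genotype, and 49.8% over biopsies, for right against left.

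The genes and lists were chosen with earlier results of these data known. All 10 genes are named; of other mural, signalling and basement membrane lists, up to 3 genes by p; and the 5 genes most correlated with the mean of the 9, among genes averaging 20 or more reads per biopsy.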

Additional observations from a re-analysis of the deposited data

Results flagged for a closer look

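Of 54 groups of mice or biopsies tested for a single sample far from the others (a gap to the nearest sample above Dixon's 95% critical value), 4 were flagged, and chance flags about 1 in 20 groups. Pdgfrb in BERKO mice had 28.3 CPM in replicate 4, with the next mouse at 11.6 CPM; 20 of the 37 reads behind it lie in CDS and 3' UTR features. Ndufa4l2 in WT mice had 22.8 CPM in replicate 4, with the next mouse at 13.4 CPM. Myl9 in left WT biopsies had 98.3 CPM in replicate 4, with the next at 35.2 CPM, and Acta2 in that same biopsy was also the highest of its group, at 103.6 CPM. Acta2 in right WT biopsies had 39.7 CPM in replicate 6, with the next at 22.0 CPM. The causes were not tested.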

How the results depend on the processing

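Under every alternative run, 0 of the tested genes and 0 of their features passed the threshold, but DESeq2 gave an adjusted p to Rgs5, Vtn and Cald1 alone. Over 894 single values the direction held in 831 and reversed in 63, and the lowest adjusted p was 0.0978 (Rgs5 with spike-in scaling). Depth limits the precision of the low genes Pdgfrb, Tagln and Higd1b. In BERKO against WT, Rgs5, Vtn, Acta2, Myl9 and Ndufa4l2 kept their direction in all alternatives. Higd1b reversed to 0.15 with spike-in scaling and 0.12 with limma-voom. Pdgfrb reversed to -0.21 with upstream and 5' UTR features alone and to -0.14 without both replicates 4. Tagln reversed to -0.043 without the 3 WT biopsies that stood apart. On the right side, Pdgfrb reversed to -0.079 with upstream and 5' UTR features alone. Right against left, Rgs5 reversed to 0.023 and Higd1b to 0.049 with spike-in scaling, and Rgs5 to 0.0084 without WT replicates 1 and 2. The causes were not tested.

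Of all genes, 7 passed the threshold in BERKO against WT (4 higher, 3 lower). This count was 45 with spike-in scaling (43 higher, 2 lower), which moved the median of all genes by 0.20, 45 with DESeq2 (32 higher, 13 lower), 2 with limma-voom (1 higher, 1 lower), 14 without a low-count filter, 4 with features of several symbols added and 3 without both replicates 4. It was 2 higher and 3 lower with upstream and 5' UTR features alone. On the right side the count of 5 became 3 with spike-in scaling and 0 with upstream and 5' UTR features alone. Right against left it became 2 without WT replicates 1 and 2, where it was 0 with all mice. Leaving out both replicates 4, or the left biopsies of WT replicates 1 and 2, was chosen after seeing the data.

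The replicate numbers of BERKO and WT mice name different animals, and same-numbered mice correlated by -0.03 to 0.10, so the numbers do not pair them. The fit with the replicate number as a replicate block also left out WT replicate 1, whose number no BERKO mouse here shares. In that fit, 17 genes passed (9 higher, 8 lower) and Tagln reversed to -0.031. With WT replicate 1 left out and no block, 4 genes passed as higher and 3 as lower. Leaving the mouse block out of right against left reversed no gene.

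Leaving out each mouse in turn gave 1 to 18 genes past the threshold in BERKO against WT (18 without WT replicate 4), 0 to 6 on the right, 0 to 1 on the left, 0 to 3 right against left, 0 to 1 within BERKO or within WT, and 8 to 48 features. Log2 changes that reversed ranged, in BERKO against WT, from -0.34 to 0.44 for Pdgfrb, -0.12 to 0.55 for Tagln, -0.40 to 0.14 for Higd1b and -0.00022 to 0.18 for Cald1, and for features from -0.17 to 0.56 for Tagln, -0.0063 to 0.16 for Cald1 and -0.031 to 0.32 for Vtn. On the right they ranged from -0.053 to 0.14 for Cald1, -0.015 to 0.55 for Ndufa4l2 and -0.34 to 0.51 for Pdgfrb, and on the left from -0.26 to 0.88 for Acta2, -0.11 to 0.20 for Cald1 and -0.061 to 0.41 for Vtn. For genotype by side they ranged from -0.23 to 0.91 for Acta2, -0.10 to 0.27 for Cald1, -0.37 to 0.17 for Myl9 and -0.16 to 0.69 for Pdgfrb. Right against left they ranged from -0.30 to 0.26 for Higd1b. Within BERKO they ranged from -0.84 to 0.094 for Acta2, -0.34 to 0.023 for Cald1, -0.025 to 0.24 for Rgs5, -0.84 to 1.06 for Tagln and -0.14 to 0.088 for Vtn, and within WT from -0.38 to 0.064 for Myl9 and -0.10 to 0.96 for Ndufa4l2. Leaving out BERKO replicate 4 reversed Pdgfrb and Tagln in BERKO against WT, Pdgfrb on the right, and Acta2, Cald1 and Vtn on the left.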
